A study of Mus musculus with 6 samples.

Results

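Long intergenic noncoding RNAs (lincRNAs) are transcripts longer than the small RNAs that carry no annotated reading frame and lie mostly between protein-coding genes. The expressed lincRNAs of lung group 2 innate lymphoid cells (ILC2s) were selected on the gene type in the count table, which had to be lincRNA, and on the mean over all 6 libraries, which had to reach 100 estimated counts. Of 18478 genes in the table, 474 were typed lincRNA and 58 of those reached the mean. From these, 3 genes on chromosomes X and Y and 1 gene within 10 Mb of Cnr2 were left out, which gave 54 genes. All 54 passed the filter on low counts and were tested. The rule used the level of each gene over both groups together, so levels are given below as a description. A gene could reach the mean through the group where it was high, and 11 of the 54 did, 5 with a mean under 100 counts in WT and 6 with one under 100 in CB2 KO. For these 11 the choice is not independent of the difference between the groups.

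The 3 CB2 KO libraries came from ILC2s of mice lacking CB2, the cannabinoid receptor of immune cells that signals through G proteins and is encoded by Cnr2, and the 3 WT libraries from ILC2s of wild-type mice. Both groups were BALB/c mice 6 weeks old given recombinant IL-33, the epithelial alarmin that expands ILC2s, through the nose as 3 doses of 1 µg. In both groups the sorted lung cells then spent 24 h in culture in the presence of 10 ng/mL IL-2 and 10 ng/mL IL-7 before total RNA was taken. The labels do not name the knockout allele, and separate mice for the replicates are not stated, so the spread behind each p-value is that of these samples and may be technical.

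Noncoding RNAs of this class act in several known ways. Some, such as Malat1 and Neat1, stay in the nucleus and build or decorate nuclear bodies, some are spliced carriers of small nucleolar RNAs (snoRNAs) or microRNAs cut out of them, and some act on a neighbouring gene in cis. Many others have no described function, and a number of annotated lincRNA genes consist largely of repeats or of copies of protein-coding transcripts. A locus known from ILC2s is Mir155hg, the primary transcript of miR-155, a microRNA that mouse ILC2s need for a full response to IL-33 in the airways.

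Library totals lay between 17141698 and 21621008 estimated counts. On the first principal component, which held 37.6% of the variance, the library labelled CB2 KO replicate 1 lay far from the rest, and it had the fewest genes with a count, 15005 against 15640 to 16514 in the other 5. Cnr2 had 186, 34 and 66 estimated counts in the libraries labelled CB2 KO replicates 1 to 3, against 200, 356 and 279 in WT, so the value of the first was close to the lowest of WT. The part of Cnr2 that the allele removes was not analysed here. All 12 ILC2 markers were found, with a summed level of 13389 to 15769 CPM (estimated counts scaled to a common library size) in CB2 KO and 12923 to 14322 CPM in WT. Macrophage and monocyte markers, 6 of 8 analysed, summed to 154 to 171 CPM in CB2 KO and 12.1 to 59.2 CPM in WT, and Adgre1 and Marco were not analysed here. Mast cell and basophil markers, 7 of 7, summed to 54.1 to 117 CPM in CB2 KO and 25.9 to 49.4 CPM in WT. Fewer cells of a type and less RNA per cell cannot be told apart in these bulk libraries.

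Mir155hg (ENSMUSG00000097418.7, chr16:84703167-84715245, plus strand, mm10) carries the hairpin of miR-155 in an exon. Both mature arms are shown because they are the known product of this member, in lower case 5′ to 3′ with the seed, bases 2 to 8, in capitals, from RefSeq on GRCm38.p6, plus strand. The 5p arm lies at chr16:84714143-84714165 and the 3p arm at chr16:84714182-84714202, and their seeds differ.
mmu-miR-155-5p: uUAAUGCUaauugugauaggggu
mmu-miR-155-3p: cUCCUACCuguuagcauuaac

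Mir155hg stood at 30.5, 32.4 and 18.1 CPM in CB2 KO, against 12.2, 11.2 and 7.25 CPM in WT. The groups did not overlap, and the lowest CB2 KO library, replicate 3, lay above the highest WT library. Its mean was 27.0 ± 7.74 CPM in CB2 KO and 10.2 ± 2.60 CPM in WT (SD, n = 3 each), a log2 fold change of 1.41 (SE 0.35) that did not pass edgeR's quasi-likelihood test (adjusted p = 0.350) and passed DESeq2 (adjusted p = 0.00380). The mature microRNA was not measured by these libraries, which count the host transcript.

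The 54 expressed lincRNAs covered 18 autosomes and had exonic lengths of 384 to 20771 bases, with a median of 2500.5. Malat1, the abundant RNA of nuclear speckles, held the highest mean, 22903 estimated counts, while the median member had 224 counts. AW112010, an RNA of mouse lymphocytes and macrophages for which translation of a noncanonical reading frame has been described, followed with 7335 counts, and Neat1, the scaffold of paraspeckles, with 4806. Per kilobase of exon the order was different. AW112010 came first with 514 CPM per kb in CB2 KO and 416 CPM per kb in WT, then Gm10076 with 477 and 395, and Malat1 with 184 and 146. Neat1, whose longest annotated form spans 20771 bases, had 14.2 CPM per kb in CB2 KO and 9.29 CPM per kb in WT. RefSeq lists 37 of the 54 as lncRNA, Gm10076 and Gm7125 as pseudogenes and Gm46430 and Gm5165 as protein-coding, and 13 had no entry of the same symbol in the table used here.

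Past the threshold of 0.05 on the adjusted p of edgeR's quasi-likelihood test, 2 of the 54 genes differed between CB2 KO and WT, against 0.107% of all 14084 tested genes. Gm42031 fell in CB2 KO (background of lower calls 0.0639%) and Gm49980 rose (background of higher calls 0.0426%). At an unadjusted p under 0.05 the members numbered 10 higher in CB2 KO, against a background of 4.33%, and 2 lower, against 4.27%. The groups did not overlap for 10 members that were higher in CB2 KO (background 6.88%) and for 5 that were lower (background 7.18%). DESeq2 called 8 members, against 2.58% of all tested genes. Lower in CB2 KO was Gm42031 (background 1.39%), and higher were Gm49980, Gm7125, Gm42047, Snhg15, Mir155hg, AW112010 and Neat1 (background 1.19%). Among the 10497 tested genes that also reached a mean of 100 counts, the shares at an unadjusted p under 0.05 were 4.36% higher and 4.57% lower, and the shares with groups apart were 7.24% and 7.91%. Genes of that wider set could reach the mean through 1 group in the same way. Both genes called by edgeR were among the 11 members with 1 group under 100 counts, as were 3 of the 8 called by DESeq2 and 5 of the 15 with groups apart. Of the 43 members with both groups at 100 counts or more, edgeR called 0 and DESeq2 called 5, and 7 had an unadjusted p under 0.05 in edgeR. Over the whole list 29 of 54 log2 fold changes were above 0, against 50% of all tested genes, and the median was 0.06, with quartiles of -0.14 and 0.51. The median of all tested genes was -0.0003.

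**Figure D1:**
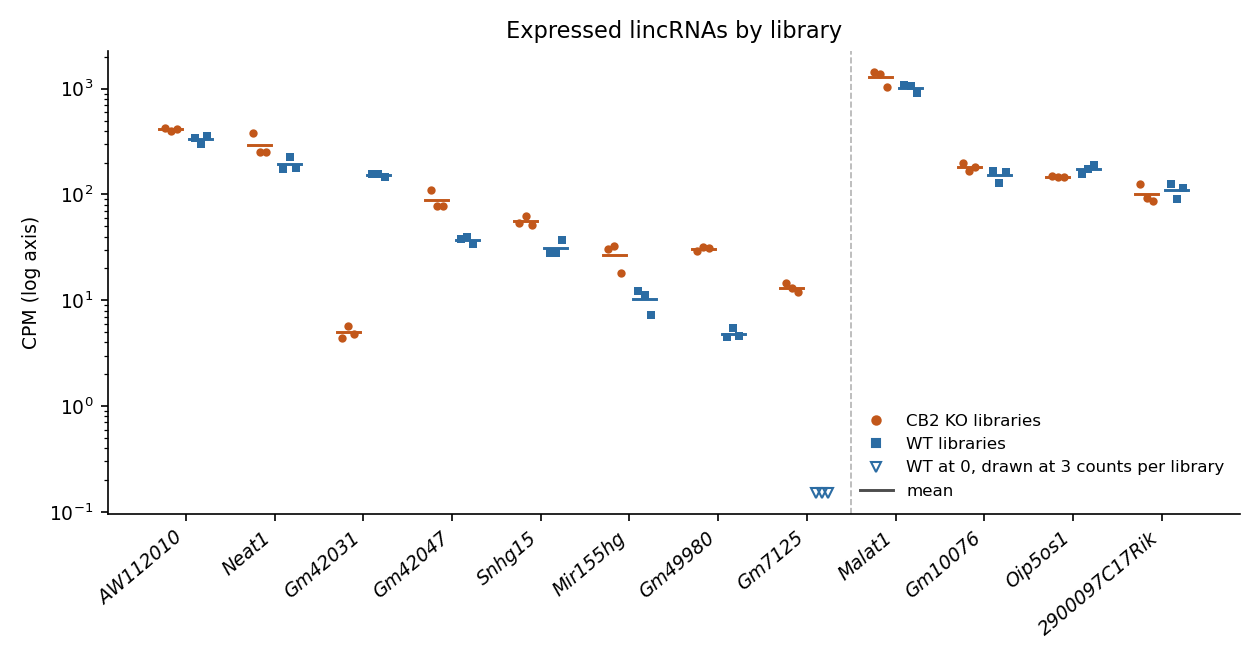
CPM on a log axis in each CB2 KO library (orange circles) and WT library (blue squares), with group means as lines, for the 8 expressed lincRNAs called by edgeR or DESeq2 (left of the dashed line) and the 4 most abundant others. Gm42031 is the 1 called member below WT in all 3 CB2 KO libraries, and Gm7125 is at 0 in all 3 WT libraries, drawn as open triangles at 3 counts per library.

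The library labelled CB2 KO replicate 1 was the highest of the 6 for 23 of the 54 genes, and 17 of these had a positive log2 fold change. Its median log2 deviation from the WT mean was 0.41, against 0.01 and -0.04 in CB2 KO replicates 2 and 3 and -0.01 to 0.02 in the WT libraries. Without it, 1 of 54 members was called (background 0.0535%), 7 were higher at an unadjusted p under 0.05 (background 4.32%) and 3 lower (background 3.76%). The groups then stood apart for 11 higher members (background 12.2%) and 8 lower ones (background 11.4%), 25 of 54 changes were positive (background 50.6%) and the median was -0.06. The count of lower members that stood apart thus moved by more than 1.5 times, as did the share over all tested genes, which was 7.18% with every library. The sign of the median was turned by leaving out this 1 library. The log2 fold change of 28 members, neither of the called genes among them, moved by more than 1.5 times or changed sign without it, and 6 of these changed sign. Summed macrophage and monocyte markers, and summed mast cell and basophil markers, were higher in all 3 CB2 KO libraries than in WT, as given above. Single markers were not compared here, and the part of these markers in the difference of any member was not tested.

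**Figure D2:**
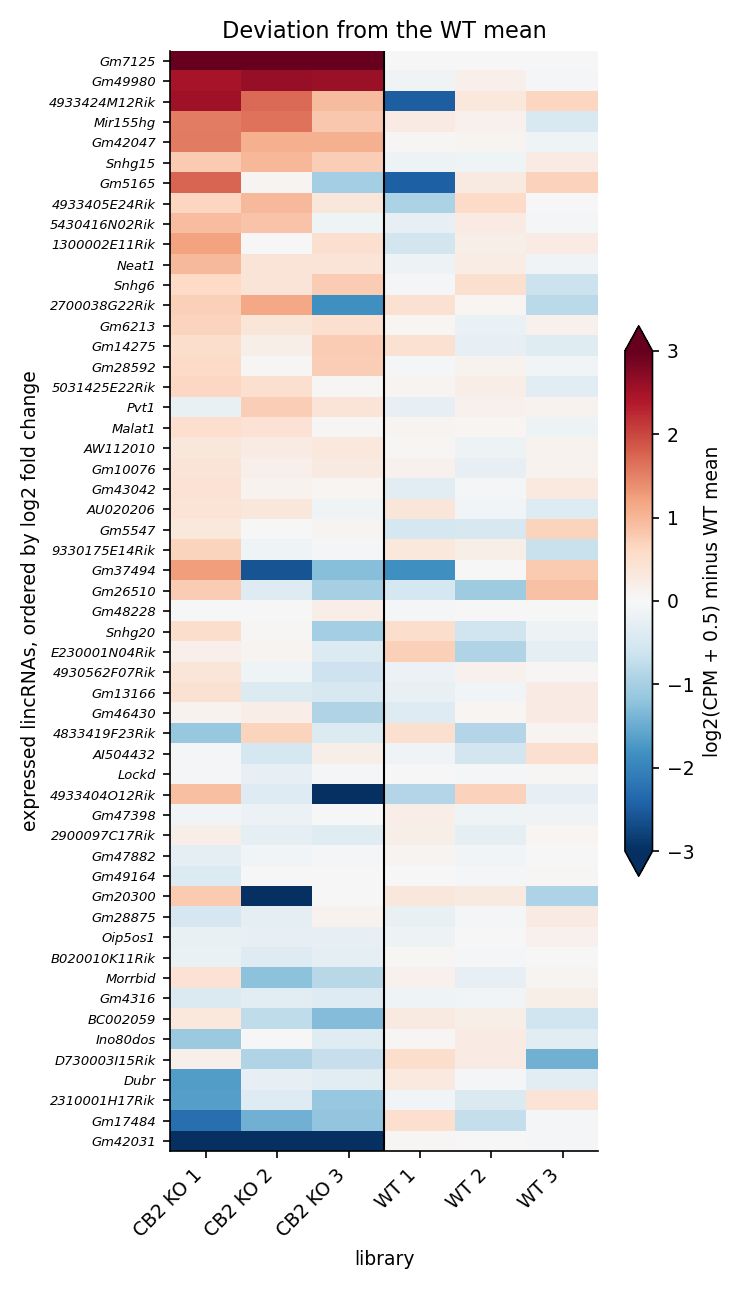
Deviation of each of the 54 expressed lincRNAs (rows, ordered by log2 fold change from highest to lowest) from its WT mean in each library (columns, CB2 KO then WT), as log2(CPM + 0.5), with the colour scale cut at 3. Rows at the top and bottom keep 1 colour over the 3 CB2 KO libraries, and the column of CB2 KO replicate 1 holds more positive values than the other columns, with a median of 0.41.

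Gm42031 (ENSMUSG00000110386.1, chr8:85125872-85132289, minus strand, 2 exons) had the smallest p of the 54 genes. Its level was 4.42, 5.70 and 4.85 CPM in CB2 KO, against 157, 156 and 148 CPM in WT. No library of either group came near the other group. Its mean was 97.7 estimated counts in CB2 KO and 3056 in WT, so it reached the limit of 100 through WT. The WT mean was 30.8 times the CB2 KO mean in CPM, and the log2 fold change was -4.94 (SE 0.19, edgeR adjusted p = 8.49e-05), which passed under all 14 alternative settings. The nearest tested protein-coding gene, Cks1brt at 19.6 kb, stood at 1.08 ± 0.237 CPM in CB2 KO and 1.15 ± 0.161 CPM in WT (SD, n = 3 each).

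Gm42031 and Gm49980, the other called gene, share sequence with each other and with a set of further genes. A blastn search of their transcripts counted matches of at least 90% identity and 100 bases on either strand. Of Gm42031 it matched 91.3% in Gm43305, 84.8% in Gm4316, another of the 54 genes, 75.9% in AI506816, 69.3% in Gm49980 and 62.3% in Cep85. Of Gm49980, 92.2% was matched in Gm42427, 91.0% in Gm4316, 74.6% in Gm42031, 74.1% in Gm43305 and 57.1% in Miga1. A stretch of 100 bases of Gm42031, from base 48 of its transcript, is shown with the aligned stretches of 3 of these genes, so that the likeness can be read. The letters come from GENCODE release M21 transcripts on GRCm38, 5′ to 3′ in the direction of Gm42031, and capitals mark bases that differ from it. The Cep85 transcript holds the stretch in the opposite direction.
Gm42031: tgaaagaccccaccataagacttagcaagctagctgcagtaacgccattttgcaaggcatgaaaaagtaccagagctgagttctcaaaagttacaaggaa
Gm43305: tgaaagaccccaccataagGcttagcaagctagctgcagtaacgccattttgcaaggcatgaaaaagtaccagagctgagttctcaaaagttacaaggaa
Cep85: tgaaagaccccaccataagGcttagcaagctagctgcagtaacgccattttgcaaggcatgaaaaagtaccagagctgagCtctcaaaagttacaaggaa
Gm4316: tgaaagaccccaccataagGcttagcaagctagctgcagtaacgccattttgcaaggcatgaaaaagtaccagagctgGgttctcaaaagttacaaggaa

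Gm49980 (ENSMUSG00000117465.1, chromosome 18, 30267249 to 30272133, plus strand, 2 exons) rose. It was at 29.0, 32.1 and 31.3 CPM in CB2 KO, against 4.45, 5.42 and 4.59 CPM in WT, and the ranges were far apart. With 601 estimated counts on average in CB2 KO and 95.9 in WT, it reached the limit of 100 through CB2 KO. In CPM the mean of CB2 KO was 6.39 times that of WT, with a log2 fold change of 2.67 (SE 0.29, edgeR adjusted p = 0.0298). This call was lost when any 1 library was left out (adjusted p from 0.0672 to 0.271), while the log2 fold change stayed between 2.61 and 2.76. Pik3c3, which encodes the class III phosphoinositide 3-kinase Vps34 and starts 614 bases downstream on the same strand, had 24.1 ± 8.02 CPM in CB2 KO and 49.7 ± 10.3 CPM in WT (SD, n = 3 each) and did not pass (log2 fold change -1.03, edgeR adjusted p = 0.419).

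In the stretch printed above Gm43305 differs from Gm42031 at 1 base and Cep85 and Gm4316 at 2 each. Gm43305 was at 85.7 ± 7.78 CPM in CB2 KO and 232 ± 16.5 CPM in WT (SD, n = 3 each) and fell, with a log2 fold change of -1.43 (edgeR adjusted p = 0.00728). Cep85, a coding gene on chromosome 4 within 10 Mb of Cnr2, had 80.5 ± 2.14 CPM in CB2 KO and 599 ± 37.0 CPM in WT and fell as well, by 2.90 on the log2 scale (edgeR adjusted p = 1.60e-05). Gm4316 lay at 5.72, 6.15 and 5.89 CPM in CB2 KO, against 7.15, 7.46 and 9.0 CPM in WT. Its groups were apart, and the difference was small and did not pass (log2 fold change -0.40, SE 0.36, edgeR adjusted p = 0.818). Gm42427 had 2.60, 3.09 and 2.86 CPM in CB2 KO, against 0, 0.341 and 0.226 CPM in WT, and did not pass (edgeR adjusted p = 0.267). AI506816 and Miga1 had log2 fold changes of 0.05 and 0.07 and did not pass (edgeR adjusted p = 0.941 and 0.981). The estimated counts divide reads that fit several genes among them, so levels of genes this similar are uncertain and reads of 1 of them can be counted to another.

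Gm7125 (ENSMUSG00000069996.3, chr15:68792320-68883576, plus strand) was listed at 0 in all 3 WT libraries. In CB2 KO it had 294, 278 and 204 estimated counts, or 14.6, 13.1 and 11.9 CPM. Taking 3 counts per library as the limit that a count of 0 allows, its level was at least 86.8-fold higher in CB2 KO. It reached the limit of 100 counts through CB2 KO alone, so that a difference was part of how it was chosen. In the fit over all genes the difference passed DESeq2 (adjusted p = 5.44e-14) and not edgeR (adjusted p = 0.105, unadjusted p = 0.000305). One annotated transcript of Gm7125 is 273 bases long and matches the Hmgn2 transcript, nearly all of it within the reading frame. Hmgn2 encodes a nucleosome-binding protein of the HMGN family and lies on chromosome 4 within 10 Mb of Cnr2. The first 237 bases are printed for both, from GENCODE release M21 transcripts on GRCm38, with capitals in Hmgn2 where it differs from Gm7125.
Gm7125: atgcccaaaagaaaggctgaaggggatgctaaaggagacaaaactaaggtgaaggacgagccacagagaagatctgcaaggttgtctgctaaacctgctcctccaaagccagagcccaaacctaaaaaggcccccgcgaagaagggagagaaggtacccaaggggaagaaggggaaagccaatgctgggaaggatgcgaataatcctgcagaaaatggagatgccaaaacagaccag
Hmgn2: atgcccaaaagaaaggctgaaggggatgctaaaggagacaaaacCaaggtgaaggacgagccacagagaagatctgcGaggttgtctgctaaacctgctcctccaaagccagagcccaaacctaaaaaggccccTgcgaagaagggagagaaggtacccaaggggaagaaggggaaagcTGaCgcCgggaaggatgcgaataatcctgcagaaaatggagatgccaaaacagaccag

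Over all 273 bases Gm7125 and Hmgn2 differ at 7, and the processed pseudogene Gm10182 on chromosome 9 equals Hmgn2 over the same bases. Hmgn2 was at 360 ± 3.39 CPM in CB2 KO and 585 ± 20.4 CPM in WT (SD, n = 3 each) and fell by 0.70 on the log2 scale (edgeR adjusted p = 0.00798). Gm10182 had 37.6 ± 3.99 CPM in CB2 KO and 125 ± 4.52 CPM in WT and fell by 1.73 (edgeR adjusted p = 0.00728). Gm10282, another copy, had 242 ± 13.7 CPM in CB2 KO and 168 ± 7.53 CPM in WT and did not pass (edgeR adjusted p = 0.124). The CB2 KO means of the genes that share this sequence thus lay on both sides of those in WT, and how reads were divided among them was not tested.

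Of the 54 genes, 14 had at least 50% of a transcript matched in 1 other gene, and 8 had at least 90%. The groups did not overlap for 6 of the 14 and for 9 of the other 40, beside 14.1% of all tested genes. Both called genes were among the 14, beside 0.107% of all tested genes called. Gm42031, Gm49980 and Gm7125, all among the 14 and with groups apart, reached the limit of 100 counts through 1 group. These counts are therefore not independent of how the members were chosen. The median size of the log2 fold change, without its sign, was 0.43 in the 14 and 0.32 in the 40. With the limit at 90% it was nearly equal, 0.37 in the 8 and 0.35 in the other 46. Among the 14, Gm10076 matched Rpl41, a ribosomal protein gene, over 99.7% of its transcript. Gm10076 was at 200, 168 and 182 CPM in CB2 KO, against 166, 127 and 162 CPM in WT, and Rpl41 at 325 ± 22.5 CPM in CB2 KO and 289 ± 44.8 CPM in WT (SD, n = 3 each), and neither passed (edgeR adjusted p = 0.631 and 0.769). Gm48228 matched Selenok, a selenoprotein gene of the endoplasmic reticulum, over its full length, and its level was 44.1 ± 4.08 CPM in CB2 KO and 42.3 ± 0.870 CPM in WT. B020010K11Rik had 44.3% matched in Tuba1b, an alpha-tubulin gene, and stood at 54.1, 46.9 and 50.7 CPM in CB2 KO, against 63.6, 59.7 and 62.4 CPM in WT, with the groups apart (edgeR adjusted p = 0.638).

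**Figure D3:**
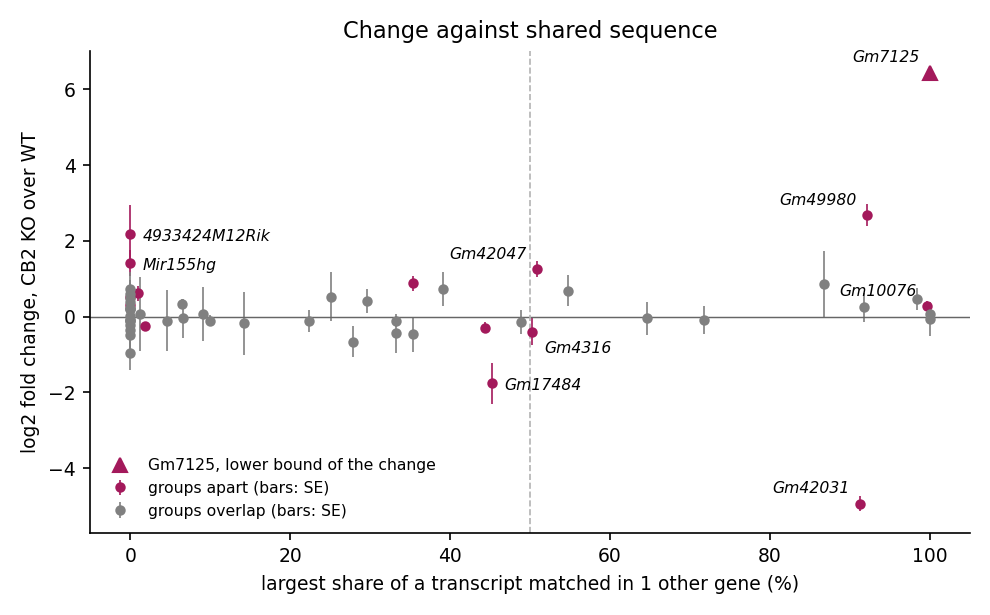
Log2 fold change of CB2 KO over WT (vertical axis, bars are SE of the fit) against the largest share of a transcript that was matched in 1 other gene (horizontal axis, percent) for the 54 expressed lincRNAs, red where the groups did not overlap. Gm42031, Gm49980 and Gm7125, drawn at its lower bound, lie right of 90%, while Mir155hg and 4933424M12Rik have no match.

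Shared exons add a second uncertainty, because no source used here states whether reads were counted by strand. Of the 54 genes, 6 share exonic bases with a protein-coding gene on the opposite strand and 1, 1300002E11Rik with Map3k13, on the same strand. Gm28592, 4930562F07Rik and 1300002E11Rik were also among the 14 above. For each of them the largest match was the gene that shares these bases, so the 2 uncertainties partly cover the same genes. Gm28592 lies antisense to Phlda1 over 98.1% of its exonic bases, and Gm17484 antisense to Bag4 over 44.9%. Gm17484 had 1.45, 2.91 and 3.56 CPM in CB2 KO, against 12.7, 5.19 and 8.44 CPM in WT. Every CB2 KO library was below every WT library, with a log2 fold change of -1.76 (SE 0.55, edgeR adjusted p = 0.452). Gm17484 averaged 50.7 estimated counts in CB2 KO and 176 in WT, so it reached the count limit for members through WT. Its separation is therefore not independent of how it was chosen. Bag4, a regulator of Hsp70 chaperones, had 32.1 CPM in CB2 KO and 27.4 CPM in WT on average, with a log2 fold change of 0.23.

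**Figure D4:**
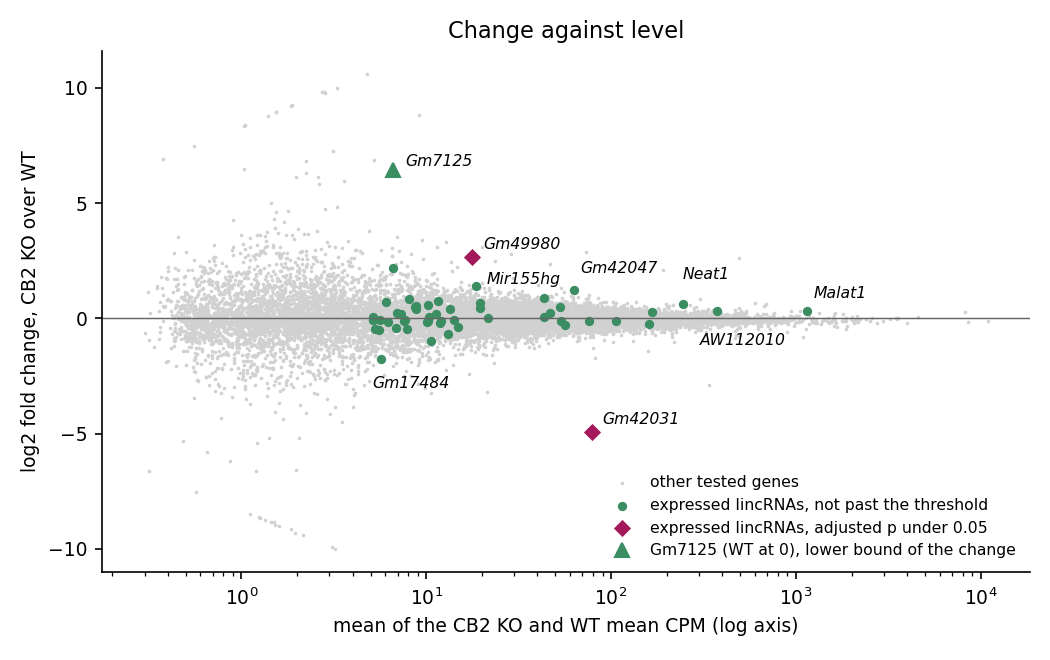
Log2 fold change of CB2 KO over WT against the mean of both group means in CPM (log axis) for the 54 expressed lincRNAs (green, or dark red diamonds where the edgeR adjusted p was under 0.05) over the other tested genes (grey). Gm7125 is a triangle at its lower bound, and grey points beyond about 8 on either side include genes at 0 in 1 group, whose fitted values depend on the prior count.

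Among the nuclear and widely expressed lncRNAs, 9 of 13 listed genes were tested, none passed edgeR (5 positive, 4 negative, 2 at an unadjusted p under 0.05, beside 8.6% of all tested genes), DESeq2 called Neat1 (2.58% of all tested genes), and their median log2 fold change was 0.33 beside -0.0003 over all genes. Malat1 (ENSMUSG00000092341.3, chr19:5795690-5802672, minus strand) averaged 1287 ± 216 CPM in CB2 KO and 1022 ± 90.8 CPM in WT (SD, n = 3 each), with a log2 fold change of 0.33 (SE 0.13, edgeR adjusted p = 0.540). Neat1, on chr19:5824708-5845478, stood at 379, 251 and 253 CPM in CB2 KO, against 175, 225 and 179 CPM in WT. Its groups were apart, with the highest value in CB2 KO replicate 1. The log2 fold change of Neat1 was 0.61 (SE 0.19, edgeR adjusted p = 0.452, DESeq2 adjusted p = 0.0262), and 0.39 without that library.

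Oip5os1, also known as Cyrano, an RNA that directs decay of miR-7, had the smallest coefficient of variation of any member in CB2 KO, with 148, 146 and 148 CPM in CB2 KO, against 157, 174 and 191 CPM in WT. All 3 CB2 KO libraries were below WT, with a log2 fold change of -0.24 (SE 0.11, edgeR adjusted p = 0.596). 2900097C17Rik, the mouse Norad gene whose RNA binds Pumilio proteins, overlapped between the groups at 101 ± 21.4 CPM in CB2 KO and 111 ± 17.7 CPM in WT (SD, n = 3 each). Pvt1, the neighbour of Myc, had 9.97 ± 3.36 CPM in CB2 KO and 7.68 ± 1.16 CPM in WT. Dubr had 4.62, 13.4 and 12.6 CPM in CB2 KO, against 19.6, 15.5 and 12.7 CPM in WT, with its lowest value in the library labelled CB2 KO replicate 1.

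Proteins of paraspeckles, the bodies that Neat1 builds, were tested beside it. Of 10 genes none passed edgeR or DESeq2, 2 were positive and 8 negative, 2 had an unadjusted p under 0.05 (8.6% of all tested genes), and the median log2 fold change was -0.11. The smallest p belonged to Cpsf6, a subunit of the cleavage factor that chooses polyadenylation sites, with 175 ± 11.1 CPM in CB2 KO and 222 ± 24.8 CPM in WT (SD, n = 3 each, log2 fold change -0.34, edgeR adjusted p = 0.469). Smarca4, the ATPase of BAF remodelling complexes, had 171 ± 15.9 CPM in CB2 KO and 212 ± 19.4 CPM in WT, and Hnrnpk had 826 ± 46.1 CPM in CB2 KO and 905 ± 32.7 CPM in WT.

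Host genes of snoRNAs formed the largest lncRNA list, with 19 tested of 23 and Snhg15, Snhg6 and Snhg20 among the 54 expressed lincRNAs. None passed edgeR, 12 were positive and 7 negative, 3 had an unadjusted p under 0.05 (8.6% of all tested genes), DESeq2 called Snhg15 (2.58% of all tested genes), and the median log2 fold change was 0.19. In the annotation Snhg15 carries Snora9, Snhg6 carries Snord87, Snhg20 carries a small Cajal body RNA, and 2700038G22Rik, not on the list, carries Snord93. Snhg15 (ENSMUSG00000085156.7, chr11:6525591-6528779, minus strand) had 54.1, 62.6 and 51.9 CPM in CB2 KO, against 27.9, 28.2 and 36.9 CPM in WT. The groups were well apart, and the mean of CB2 KO was 1.81 times that of WT, with a log2 fold change of 0.88 (SE 0.20, edgeR adjusted p = 0.285, DESeq2 adjusted p = 0.000427).

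Snhg6 had 12.5 ± 1.63 CPM in CB2 KO and 8.09 ± 3.28 CPM in WT, and Snhg20 had 21.5 ± 10.6 CPM in CB2 KO and 21.6 ± 8.91 CPM in WT (SD, n = 3 each), and both overlapped between the groups. Outside the lincRNA type, Gas5, whose spliced RNA is known to bind the glucocorticoid receptor, was at 122 ± 9.77 CPM in CB2 KO and 96.4 ± 5.64 CPM in WT (SD, n = 3 each, log2 fold change 0.34, edgeR adjusted p = 0.484). Snhg16, with an unadjusted p under 0.05 like Snhg15 and Gas5, had 12.4 ± 3.43 CPM in CB2 KO and 4.65 ± 2.13 CPM in WT. Its log2 fold change was 1.42 (edgeR adjusted p = 0.452). Snhg5 had 24.8 ± 6.36 CPM in CB2 KO and 22.5 ± 3.35 CPM in WT, and Snhg17 had 24.4 ± 10.8 CPM in CB2 KO and 19.6 ± 5.50 CPM in WT.

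The promoter of Snhg15, 250 bases before and 50 after its RefSeq start, is shown with that of 1300002E11Rik, because these were the 2 of 35 promoters, found for 32 of the 54 genes, that hold the full cAMP response element TGACGTCA. It was 1 of 7 motifs searched on both strands, and it was singled out after the counts were seen. Factors of the CREB family are known to bind it. Capitals mark this element in both and the E-box CACGTG in Snhg15, both palindromes that read the same on either strand and do not overlap here. Sequences are from RefSeq on GRCm38.p6, at chr11:6528711-6529010, minus strand, and chr16:21794097-21794396, plus strand.
Snhg15: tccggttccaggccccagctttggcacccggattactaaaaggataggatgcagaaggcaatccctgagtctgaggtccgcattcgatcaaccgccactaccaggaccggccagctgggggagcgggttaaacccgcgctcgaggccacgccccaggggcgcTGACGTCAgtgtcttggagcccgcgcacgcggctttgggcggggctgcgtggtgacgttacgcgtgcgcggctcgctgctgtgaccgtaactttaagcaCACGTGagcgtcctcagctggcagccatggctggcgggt
1300002E11Rik: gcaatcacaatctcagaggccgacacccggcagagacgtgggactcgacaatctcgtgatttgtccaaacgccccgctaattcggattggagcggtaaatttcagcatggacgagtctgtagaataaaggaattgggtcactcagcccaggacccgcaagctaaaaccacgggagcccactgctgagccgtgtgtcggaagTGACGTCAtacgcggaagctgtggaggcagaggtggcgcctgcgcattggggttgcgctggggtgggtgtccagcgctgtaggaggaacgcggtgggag

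The cAMP response element begins at -88 in Snhg15 and at -49 in 1300002E11Rik, and it is found in 1.79% of 32851 promoters of the same length. The E-box begins at 12 in Snhg15 and is found in 3 of the 35 promoters and in 7.15% of all. Of the other motifs, AGATAA, which factors such as Gata3 are known to bind, was found in 3 of the 35 promoters and 11.2% of all, AP-1 (TGANTCA) in 3 and 7.81%, STAT (TTCNNNGAA) in 2 and 8.30%, NF-kappaB in 2 and 1.63%, and ETS (CCGGAAG) in 9 and 8.86%. 1300002E11Rik had 35.6, 15.2 and 21.3 CPM in CB2 KO, against 10.2, 17.1 and 18 CPM in WT, and its groups overlapped (log2 fold change 0.69, SE 0.41, edgeR adjusted p = 0.694). Its highest value was in CB2 KO replicate 1, and without that library the log2 fold change was 0.27. A match of letters is a description and not a site of binding.

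The core proteins of snoRNA particles were positive in all 10 tested genes, beside 50% of all tested genes, with a median log2 fold change of 0.18. The values ran from 0.002 (Snu13, SE 0.11) to 0.33 (Nolc1, SE 0.18). None passed edgeR or DESeq2 (1 at an unadjusted p under 0.05, beside 8.6% of all tested genes). That 1 was Nhp2, of the pseudouridylation particles, with 153 ± 12.4 CPM in CB2 KO and 127 ± 7.82 CPM in WT (SD, n = 3 each, log2 fold change 0.28, edgeR adjusted p = 0.556). Rrp9 had 85.3 ± 1.43 CPM in CB2 KO and 68.4 ± 9.65 CPM in WT, and Nolc1 had 158 ± 36.9 CPM in CB2 KO and 127 ± 4.42 CPM in WT. Nonsense-mediated decay, which degrades many spliced snoRNA hosts, had 12 tested factors, 5 positive and 7 negative, none at an unadjusted p under 0.05 in edgeR and none called by DESeq2. Upf1, its RNA helicase, had 116 ± 28.4 CPM in CB2 KO and 153 ± 37.7 CPM in WT, and Smg1, the kinase that phosphorylates it, had 43.1 ± 11.3 CPM in CB2 KO and 32.2 ± 3.92 CPM in WT.

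MicroRNA host genes had positive log2 fold changes in all 5 tested of 17 listed, with a median of 0.97, and none passed edgeR (2 at an unadjusted p under 0.05, beside 8.6% of all tested genes), while DESeq2 called Mir155hg (2.58% of all tested genes). Mir22hg averaged 40.1 ± 15.4 CPM in CB2 KO and 19.99 ± 9.21 CPM in WT (SD, n = 3 each, log2 fold change 1.01, edgeR adjusted p = 0.571). Dleu2, host of miR-15a and miR-16-1, averaged 41.7 ± 2.01 CPM in CB2 KO and 31.5 ± 9.23 CPM in WT. Mir17hg, host of the miR-17-92 cluster, had 6.42 ± 3.98 CPM in CB2 KO and 3.22 ± 2.92 CPM in WT, and Mir142hg had 4.07 ± 1.34 CPM in CB2 KO and 2.06 ± 0.460 CPM in WT. Of 13 proteins that make or use microRNAs, 11 had negative log2 fold changes and 2 positive, with a median of -0.30, and none passed edgeR (1 at an unadjusted p under 0.05, again beside 8.6%). Ago2, the slicing Argonaute and the gene of that list that DESeq2 called, was 1 of the 2 positive genes, with 99.3 ± 9.06 CPM in CB2 KO and 69.7 ± 8.74 CPM in WT (SD, n = 3 each, log2 fold change 0.50, edgeR adjusted p = 0.446). Its silencing partners Tnrc6b and Tnrc6a had 22.7 ± 9.69 and 22.9 ± 9.07 CPM in CB2 KO, against 35.9 ± 3.41 and 37.8 ± 14.2 CPM in WT. Tnrc6c of the same family was the other positive gene, with 27.0 ± 11.5 CPM in CB2 KO and 20.5 ± 2.66 CPM in WT. None of these partners passed (edgeR adjusted p = 0.631 for Tnrc6b, 0.669 for Tnrc6a and 0.802 for Tnrc6c).

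Of the immune lncRNAs, 5 of 9 were tested, 4 positive and 1 negative, with none past the threshold in edgeR, 2 at an unadjusted p under 0.05 (8.6% of all tested genes) and 2 called by DESeq2 (2.58% of all tested genes), which were AW112010 and Mir155hg. Mir155hg and Mir142hg, both positive, are also on the list of microRNA host genes, so the 2 lists are not independent. AW112010 (ENSMUSG00000075010.5, chr19:11047612-11055808, minus strand) was at 426, 396 and 418 CPM in CB2 KO, against 342, 302 and 359 CPM in WT. The groups did not overlap, and the gap between them was smaller than the range of WT, with a log2 fold change of 0.31 (SE 0.08, edgeR adjusted p = 0.386, DESeq2 adjusted p = 0.00942). Morrbid, which restrains the death gene Bcl2l11 in cis in short-lived myeloid cells, had 22.6, 6.79 and 9.24 CPM in CB2 KO, against 18.3, 14.1 and 17.8 CPM in WT, and overlapped. The overlap came from CB2 KO replicate 1. Without that library its log2 fold change was -1.08 in place of -0.37 (edgeR unadjusted p = 0.0191, adjusted p = 0.547). Bcl2l11, 15.8 kb away, had 0.248, 0 and 4.30 CPM in CB2 KO, against 9.32, 7.61 and 4.08 CPM in WT, and did not pass (edgeR adjusted p = 0.5501).

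Gm42047 (ENSMUSG00000110631.1, chr8:121833247-121841178, plus strand) had 110, 78.3 and 77.8 CPM in CB2 KO, against 37.9, 39.4 and 34.1 CPM in WT. The lowest CB2 KO library was above the highest WT library, and the mean was 2.39 times that of WT, with a log2 fold change of 1.26 (SE 0.21, edgeR adjusted p = 0.124, DESeq2 adjusted p = 1.02e-08). Gm42047 was 1 of the 14 members with at least 50% of a transcript matched in 1 other gene, 50.9% in Gm47761. How reads were divided between them was not tested. Galnt2l, whose listed span covers both Gm42047 and Gm4316, had 82.9 ± 7.82 CPM in CB2 KO and 73.7 ± 3.19 CPM in WT (SD, n = 3 each). Gm6213, on chr8:39297980-39368268, plus strand, had 70.1, 56.1 and 61.8 CPM in CB2 KO, against 45.7, 38.3 and 47.7 CPM in WT, with the groups apart and a log2 fold change of 0.52 (edgeR adjusted p = 0.472). 4933424M12Rik, chosen after its values were seen, had 17.4, 9.39 and 5.41 CPM in CB2 KO, against 0.0466, 3.32 and 4.30 CPM in WT. The groups were apart with a wide spread inside each (log2 fold change 2.17, SE 0.76, edgeR adjusted p = 0.484). 4933424M12Rik averaged 214 estimated counts in CB2 KO and 48.3 in WT, so it reached the count limit for members through CB2 KO. Its separation too is not independent of how it was chosen.

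Distance to coding genes was not used to choose these genes. The nearest tested protein-coding gene lay at a median of 13.3 kb. It was on the same strand without overlap for 26 genes, divergent for 14 and convergent for 7, and 7 overlapped it. The log2 fold change of the lincRNA and of that neighbour had the same sign in 23 of 54 pairs, 42.6%, and in 12 of 25 pairs within 10 kb, 48%, beside 50.6% of 11099 protein-coding genes and their nearest other. Cnbd2, 12.4 kb from 2900097C17Rik, had 40.3 ± 3.57 CPM in CB2 KO and 6.98 ± 1.44 CPM in WT (SD, n = 3 each). It passed edgeR (log2 fold change 2.51, adjusted p = 0.0298), while 2900097C17Rik had a log2 fold change of -0.12. The pairs that follow were chosen after their values were seen. 4933405E24Rik, 34.0 kb from Csf2 on chromosome 11, had 14.1, 17.7 and 11.2 CPM in CB2 KO, against 4.33, 13.2 and 8.77 CPM in WT, and overlapped. Csf2, which encodes the cytokine GM-CSF, had 831 ± 99.4 CPM in CB2 KO and 541 ± 6.13 CPM in WT (SD, n = 3 each, log2 fold change 0.62, edgeR adjusted p = 0.0884).

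Lockd, an RNA transcribed downstream of Cdkn1b from a locus that enhances it in mouse erythroid cells, overlapped between the groups at 51.7 ± 4.28 CPM in CB2 KO and 55.5 ± 1.94 CPM in WT (SD, n = 3 each). Cdkn1b, the cyclin-dependent kinase inhibitor p27, 3.58 kb away, had 34.3, 16.9 and 9.01 CPM in CB2 KO, against 8.15, 8.29 and 9.17 CPM in WT, with its highest value in the library labelled CB2 KO replicate 1 (edgeR adjusted p = 0.581). Myc had 152 ± 43.1 CPM in CB2 KO and 159 ± 16.6 CPM in WT beside Pvt1. Atf3, divergent from D730003I15Rik at 6.42 kb, had a log2 fold change of 0.89 where D730003I15Rik had -0.50, and neither passed (edgeR adjusted p = 0.852 and 0.875). Without CB2 KO replicate 1 the log2 fold change of D730003I15Rik was -0.94.

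Spread between replicates followed the level. In the 12 genes with a mean of at least 1000 counts the median coefficient of variation was 9.97% in CB2 KO and 8.82% in WT, and the groups stood apart for 8 of them, beside 17.8% of all tested genes at that level. In the 19 genes from 200 to 1000 counts it was 22.9% in CB2 KO and 22.2% in WT, with 3 apart (12.9% of tested genes at that level). In the 23 genes from 100 to 200 counts it was 40.8% in CB2 KO and 36.5% in WT, with 4 apart (13.5% of tested genes at that level). Gm42031, Gm49980, Gm7125, Gm17484 and 4933424M12Rik, all counted as apart here, reached the mean of 100 counts through 1 group. For these the choice is not independent of the difference. 2310001H17Rik and Ino80dos were the remaining genes among the 8 smallest p with lower values in CB2 KO. 2310001H17Rik had 7.02 ± 3.35 CPM in CB2 KO and 14.2 ± 4.35 CPM in WT, and Ino80dos had 4.43 ± 1.81 CPM in CB2 KO and 6.10 ± 1.31 CPM in WT (SD, n = 3 each), and both overlapped. Gm47882, among the 10 most abundant, had 73.0 ± 6.41 CPM in CB2 KO and 79.6 ± 4.46 CPM in WT. Single libraries dominated some low members. Gm37494 ran from 1.32 to 25.5 CPM in CB2 KO and from 2.56 to 18.3 CPM in WT, and Gm20300 was at 0 in CB2 KO replicate 2 and at 11.6 CPM in replicate 1.

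The genes just inside the limit of 100 counts were Gm26510, Gm13166 and 4833419F23Rik, with means of 100.3, 101.6 and 103.4 estimated counts. Just outside were Mir17hg, Gm11110 and D5Ertd605e with 94.0, 94.0 and 89.7. The 54 genes held 0.381%, 0.332% and 0.296% of the estimated counts in CB2 KO, against 0.295%, 0.283% and 0.280% in WT. The lowest CB2 KO library and the highest WT library were nearly level. Malat1 was the largest part, with 0.146%, 0.138% and 0.104% in CB2 KO, against 0.108%, 0.105% and 0.0909% in WT. The difference in the mean share was 0.05 percentage points, and 0.0277 when the library labelled CB2 KO replicate 1 was left out.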

How the data were processed

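The values are estimated counts per gene that the authors deposited, from the expectation-maximization quantification of Partek as the deposited table's name states. Per the submitters' processing notes, CASAVA 1.8.2, STAR (listed as version 3.5.3) and Partek were used with mm10. A read that fits several genes is divided between them, and no source used here states the strand setting. Estimated counts were rounded and tested with edgeR 4.0.16 in R 4.3.3 (TMM, filterByExpr, robust glmQLFit, legacy=FALSE, then glmQLFTest, Benjamini-Hochberg over 14084 genes, threshold 0.05). The SE of a log2 fold change is its size over the square root of F. CPM uses TMM-scaled library sizes, and a positive log2 fold change is one that is higher in CB2 KO. DESeq2 1.42.0 and limma 3.58.1 (voom) were alternatives, with other scalings, filters, a replicate block and each library left out. The workflow was tested on simulated data. A normalized version of the table, also deposited, was not used. Limits from 3 counts cover counting error only.

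Members were matched to GENCODE release M21, 50 by symbol and 4 by coordinates, and transcripts were compared with blastn 2.17.0. The members, lists and tests were chosen with earlier results of these data known. Named genes were Cnr2, called members, the 8 members with the smallest p in each direction, the 10 with the highest mean count, up to 4 per lncRNA list by mean count, the 3 on each side of the count limit, up to 3 with the smallest p per protein list, and nearest coding genes; a gene of the protein lists that this rule names is not reported here. Genes with matching sequence, Tnrc6c and Snhg16 were added after their values were seen. The 3 listed rRNA-overlapping loci were not analysed here, and of 9 imprinted lncRNAs 2 were tested, Kcnq1ot1 (log2 fold change 0.09) and Peg13 (-0.19), with neither called. Of the other marker lists, T cell (6 of 9), B cell (3 of 6), NK cell (1 of 6) and epithelial and stromal markers (6 of 9) summed to 145 to 158, 25.4 to 33.6, 0 to 2.12 and 47.5 to 59.9 CPM in CB2 KO, against 145 to 156, 20.5 to 54.5, 0 to 7.87 and 50.8 to 148 CPM in WT.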

Additional observations from a re-analysis of the deposited data

How the results depend on the processing

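Genes past the threshold numbered 15 of 14084 in edgeR, and 363 with DESeq2, 35 when testing was limited to mean counts of at least 100, and 3 with the replicate number as a block. Leaving out 1 library gave 3 to 8. Expressed lincRNAs past it numbered 2, and 8 with DESeq2, 1 with the replicate block, and 1 whenever a library was left out. The call lost was that of Gm49980 (adjusted p = 0.336 with the block). Deviations of same-numbered libraries correlated at 0.07, 0.03 and 0.02, and those of differently numbered ones at -0.06 to 0.03. With 3 libraries per group these values cannot settle whether the numbers pair the samples. Without CB2 KO replicate 1, 8 members in place of 5 had groups apart with lower values in CB2 KO, and so had 11.4% in place of 7.18% of all tested genes, an alternative chosen after seeing the data. Over 280 values of 20 named members, none reversed, 267 kept their side of the threshold, 7 lost and 6 gained a call. These 20 were named for a small p in their direction or a high mean count, a choice that favours stable signs. Most were uncalled in the main fit, so keeping a side mostly meant staying uncalled. Among all 54 members, 6 changed sign without CB2 KO replicate 1. The median log2 fold change lay between -0.06 and 0.29, and was -0.06 with a mean count of at least 50 and 0.20 with at least 200 as the limit for a member. At 100 to 200 counts the spread between replicates (median coefficient of variation 40.8% in CB2 KO and 36.5% in WT) was wider than counting alone gives (7.07% to 10%). The cause of each change was not tested.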
